A study of Mus musculus with 30 samples.

Results

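The genes of the pre-B cell receptor and of early B lineage cells were followed in blood stem and progenitor cells of mice that had lost Mettl3, the catalytic subunit of the enzyme that places N6-methyladenosine on RNA. The set held 9 genes, chosen by name for their roles and not by a threshold on their values: Igll1, Vpreb1, Vpreb3, Cd79a, Cd79b, Blnk, Ebf1, Pax5 and Mzb1. Earlier results of these data were known when they were chosen, so the counts of members called are not independent of the data. All 9 were found, among 24059 gene names measured in sorted populations and 27933 measured in single cells. Mettl3KO mice were Mx1-Cre; Mettl3 fl/fl, WT mice were Mettl3 fl/fl, and both were sampled 3 weeks after pIpC, an inducer of interferon that turns on Mx1-Cre. Mx1-Cre acts in many interferon-responsive cells, so the deletion was not restricted to blood, and the labels give no age. Bone marrow was sorted into HSC (Lin-;Sca1+;c-Kit+;CD150+;CD48-), MPP1 (Lin-;Sca1+;c-Kit+;CD150-;CD48-), MPP2 (Lin-;Sca1+;c-Kit+;CD150+;CD48+) and MPP4 (Lin-;Sca1+;c-Kit+;CD150-;CD48+) for bulk RNA sequencing, and into LK cells (Lin-; c-Kit+) for droplet single-cell sequencing. Each genotype had 3 libraries of each population, from 3 mice, which gave 24 bulk and 6 LK libraries.

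The pre-B cell receptor is the first receptor that a developing B cell displays. The surrogate light chain proteins, encoded by Vpreb1 and Igll1, pair with the newly made immunoglobulin heavy chain, and the complex signals through Cd79a and Cd79b, which carry the cytoplasmic activation motifs. Blnk is the adaptor that links the receptor to downstream enzymes. Ebf1 is the transcription factor that specifies the lineage, Pax5 is the factor that commits cells to it, Vpreb3 is a relative of Vpreb1 found inside early B cells, and Mzb1 is a helper protein of the endoplasmic reticulum that is abundant in antibody-secreting cells and also made in other lymphoid and plasmacytoid dendritic cells. In bone marrow these genes mark pro-B and pre-B cells, and uncommitted stem cells carry little of their RNA.

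The members lie on several chromosomes of GRCm38, and Vpreb1 (chr16:16868403-16870843, minus strand) and Igll1 (chr16:16860671-16863985, minus strand) are neighbours 4418 bases apart. Cd79a lies at chr7:24897381-24902197 (plus strand), Cd79b at chr11:106311341-106314762 (minus), Vpreb3 at chr10:75943057-75949657 (plus), Blnk at chr19:40928927-40994535 (minus), Ebf1 at chr11:44617317-45008091 (plus) and Pax5 at chr4:44524757-44710487 (minus), all annotated as protein coding. In the GENCODE vM21 annotation, exons of Vpreb1 overlap those of Top3b, exons of Pax5 overlap those of Gm12462 and 5730488B01Rik, and exons of Mzb1 overlap those of SPATA24, and strand use in the counting is not given in the sources used here. Vpreb1 has a near-identical copy, Vpreb2, so reads may have been split between them.

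The start regions of the 5 members called higher in both Mettl3KO MPP4 and Mettl3KO MPP1 are printed from RefSeq (GRCm38.p6, 250 bases before to 50 bases after the start, gene strand), for Igll1 (chr16:16863936-16864235), Vpreb1 (chr16:16869206-16869505), Vpreb3 (chr10:75948050-75948349), Cd79a (chr7:24897247-24897546) and Blnk (chr19:40994172-40994471). Capitals mark every match, on either strand, to CCCNNGGG (the palindromic core that EBF1 binds), ATGCAAAT (the octamer of POU factors) and CAGGTG (an E-box of E proteins).
Igll1: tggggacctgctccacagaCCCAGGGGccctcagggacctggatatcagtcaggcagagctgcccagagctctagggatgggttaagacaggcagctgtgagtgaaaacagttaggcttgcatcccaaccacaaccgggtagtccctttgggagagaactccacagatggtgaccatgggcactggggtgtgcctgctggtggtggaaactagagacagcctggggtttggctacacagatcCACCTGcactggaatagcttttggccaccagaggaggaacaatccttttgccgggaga
Vpreb1: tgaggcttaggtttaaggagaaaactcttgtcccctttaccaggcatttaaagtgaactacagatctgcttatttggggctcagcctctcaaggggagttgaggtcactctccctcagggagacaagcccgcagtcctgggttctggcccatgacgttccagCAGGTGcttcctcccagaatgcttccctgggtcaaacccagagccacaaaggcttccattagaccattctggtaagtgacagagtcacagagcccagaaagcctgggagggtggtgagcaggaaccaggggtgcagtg
Vpreb3: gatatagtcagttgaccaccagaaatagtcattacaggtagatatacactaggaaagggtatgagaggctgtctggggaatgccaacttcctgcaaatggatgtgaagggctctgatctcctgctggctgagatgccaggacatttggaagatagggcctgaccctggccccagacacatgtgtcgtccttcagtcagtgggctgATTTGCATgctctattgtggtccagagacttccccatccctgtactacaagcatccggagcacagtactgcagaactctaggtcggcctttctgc
Cd79a: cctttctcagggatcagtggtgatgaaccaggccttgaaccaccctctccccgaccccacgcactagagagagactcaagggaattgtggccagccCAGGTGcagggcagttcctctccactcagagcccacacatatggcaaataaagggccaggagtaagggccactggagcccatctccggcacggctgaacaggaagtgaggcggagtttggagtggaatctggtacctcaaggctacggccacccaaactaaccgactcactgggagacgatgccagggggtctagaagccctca
Blnk: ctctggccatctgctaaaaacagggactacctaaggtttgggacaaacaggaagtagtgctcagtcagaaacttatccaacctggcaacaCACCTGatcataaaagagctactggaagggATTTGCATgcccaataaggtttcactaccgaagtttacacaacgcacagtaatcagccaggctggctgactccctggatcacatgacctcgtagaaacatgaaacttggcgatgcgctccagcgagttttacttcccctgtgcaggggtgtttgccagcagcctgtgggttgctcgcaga
Igll1 held CCCNNGGG at position -231 from the start and the E-box at -8. Vpreb1 held the E-box at -88, Cd79a held it at -154, and Blnk held it at -160. Vpreb3 held the octamer at -45 and Blnk at -130. No match to another of these letters was found in these 5 windows, and the table had no entry for Cd79b. Among all 32851 promoters of that table, 13.7% held CCCNNGGG, 1.74% the octamer and 20.2% the E-box; the matches describe the windows only. The windows of Ebf1 and Pax5 held none of these letters and are not printed.

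Depth ran from 28890216 to 55265024 counts per bulk library and from 28546967 to 44159208 UMIs (unique molecular identifiers, one per captured RNA molecule) per LK library. Mettl3 itself was lower in Mettl3KO in every population (log2 fold change ± SE -1.35 ± 0.18 in HSC, -1.49 ± 0.18 in MPP1, -1.08 ± 0.18 in MPP2, -0.77 ± 0.18 in MPP4 and -0.75 ± 0.10 in LK cells, edgeR adjusted p at most 0.0221). Library MPP1 Mettl3KO replicate 2 stood apart, with a summed level of 74227 CPM (counts scaled to library size) over 11 granulocyte markers, against 1455 and 403 CPM in the other MPP1 Mettl3KO libraries and 1591, 1196 and 5055 CPM in MPP1 WT. In the LK cells, 303 of 24389 distinct cell barcodes occurred in more than 1 library, and WT replicate 3 held 1094 of the 1358 granulocyte-like cells.

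In WT mice the members other than Cd79b were at trace levels in HSC and highest in MPP4. The MPP4 gate, as given above, did not use Flt3. All 9 were higher in WT MPP4 than in WT HSC, in a comparison in which 6.65% of the 15541 genes tested were higher and 12.0% differed either way (edgeR quasi-likelihood test, adjusted p under 0.05). Igll1 had 204, 87 and 63 CPM in WT MPP4, against 0.504, 0.169 and 0.118 CPM in WT HSC, a log2 difference of 8.75 ± 0.83 (adjusted p = 1.31e-06). Cd79a had 261, 193 and 166 CPM in WT MPP4 and 0.679, 0.55 and 0.426 CPM in WT HSC. Ebf1 had 140.1, 72.5 and 24.8 CPM and 0.0776, 0.423 and 0.0709 CPM in the same groups, and Mzb1 181, 241 and 227 CPM and 0.291, 0.0846 and 0.0473 CPM. No MPP4 library overlapped an HSC library for any of these genes. The exception in size was Cd79b, with 146, 114 and 102 CPM in WT MPP4 and an already measurable 43.4, 26.7 and 31.6 CPM in WT HSC (1.83 ± 0.22 on the log2 scale). Pax5 was listed at 0 in all 3 WT HSC libraries and had 1.17, 0.791 and 0.862 CPM in WT MPP4, at least 44.7-fold higher than the floor of 3 counts over the HSC group; its call was lost without HSC WT replicate 2 (adjusted p = 0.0536, and up to that value over all alternatives).

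WT MPP2, the progenitors biased to megakaryocytes and red cells, held an intermediate level: 8 of 9 members were higher than in WT HSC (2.51% of all genes were higher and 3.91% differed either way), from 1.00 ± 0.22 for Cd79b to 8.43 ± 0.57 for Mzb1 on the log2 scale, while Pax5 had 0.0463, 0.386 and 0.213 CPM in WT MPP2 (adjusted p = 0.0688). The Cd79b call in MPP2 was lost without MPP2 WT replicate 1, HSC WT replicate 2 or HSC WT replicate 3 (adjusted p 0.107, 0.0898 and 0.0609). In WT MPP1, where 4 of 15541 genes (0.0257%) differed from WT HSC, none of the 9 passed the test; 5 members had an unadjusted p under 0.05, and DESeq2 called 3. Cd79a had 1.77, 2.71 and 1.21 CPM in WT MPP1, above all WT HSC libraries, with a difference of 1.77 ± 0.34 (adjusted p = 0.0796). As a share of the WT MPP4 mean, WT MPP2 reached 16.1% for Vpreb3 to 38.4% for Blnk, apart from 56.1% for Cd79b. WT MPP1 reached 0.27% for Mzb1 to 5.69% for Blnk, apart from 30.9% for Cd79b.

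**Figure D1:**
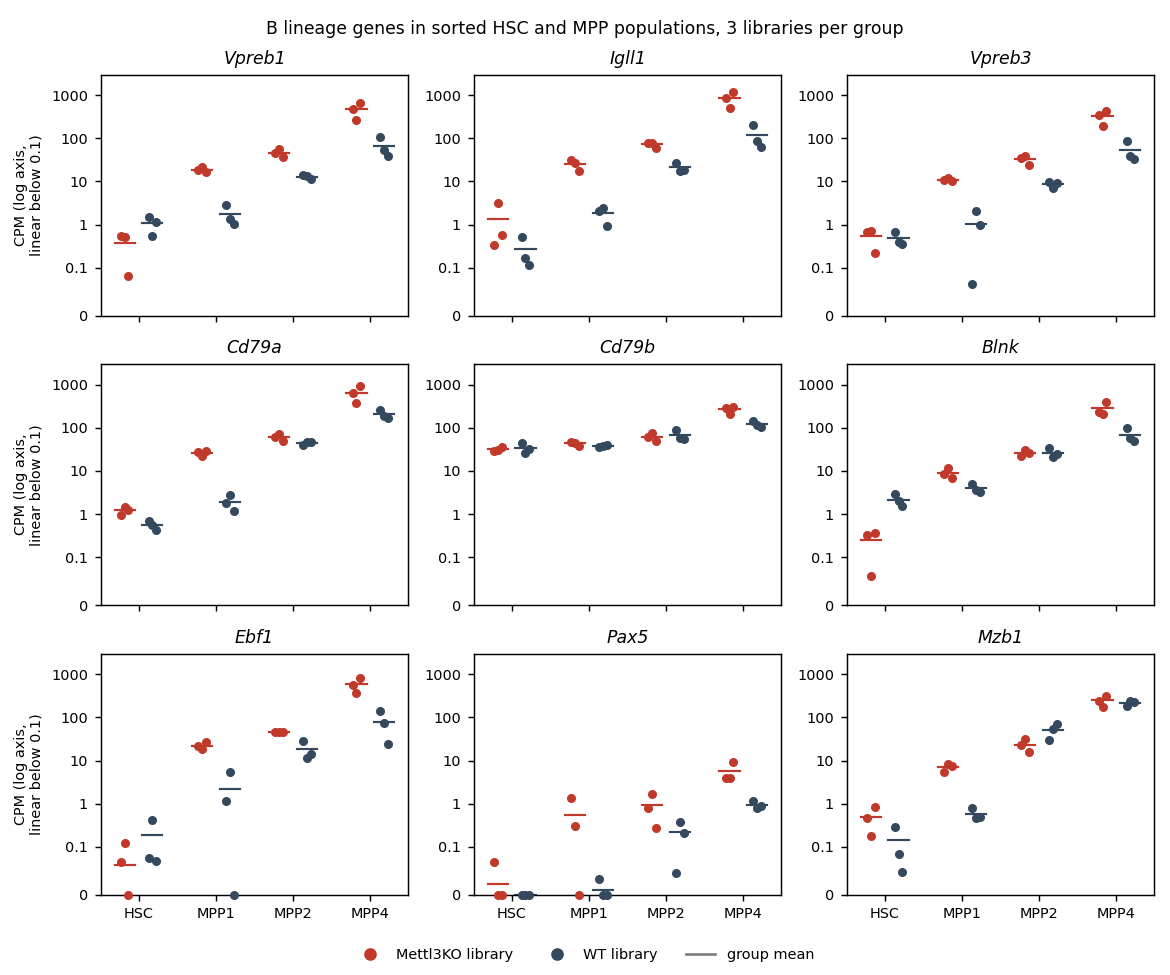
Level of each of the 9 genes in the 24 bulk libraries (CPM, log scale), by sorted population, Mettl3KO left of WT, 1 point per library and a bar at the group mean. Igll1 spans 492 to 1188 CPM in Mettl3KO MPP4 against 63.0 to 204 CPM in WT MPP4, and Cd79b is the only member well above the others in HSC of both genotypes.

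Loss of Mettl3 went with higher pre-B receptor RNA in MPP4. Of the 9 members, 6 were higher in Mettl3KO and none was lower, where 1.02% of all genes tested were higher and 3.13% differed either way; the median log2 fold change was 2.60 over the members and -0.01 over all genes. Among the called members, the surrogate light chain genes had the largest estimates. Igll1 had 859.7, 492 and 1188 CPM in Mettl3KO and 204, 87 and 63 CPM in WT (2.84 ± 0.60, a 7.16-fold difference, edgeR adjusted p = 0.0123). Vpreb1 had 477, 270.3 and 651 CPM in Mettl3KO and 107, 53.7 and 39.1 CPM in WT (2.81 ± 0.45, adjusted p = 0.00157). The lowest Mettl3KO library lay above the highest WT library for both. Vpreb3 had 342, 195 and 439 CPM in Mettl3KO and 87.3, 37.9 and 33.2 CPM in WT (2.62 ± 0.54, adjusted p = 0.0096). In bulk RNA, a change in the number of cells of a type and a change in RNA per cell cannot be told apart.

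The signalling chains and the adaptor rose as well. Cd79a had 648, 368 and 947 CPM in Mettl3KO MPP4 and 261, 193 and 166 CPM in WT MPP4 (1.66 ± 0.29, edgeR adjusted p = 0.00335). Cd79b had 286, 205 and 308 CPM in Mettl3KO and 146, 114 and 102 CPM in WT (1.14 ± 0.22, adjusted p = 0.00601). Blnk had 234, 205 and 404 CPM in Mettl3KO and 100.4, 59 and 49.4 CPM in WT (2.01 ± 0.35, adjusted p = 0.00326). Of these 3 genes no Mettl3KO library overlapped a WT library. The transcription factors had estimates of the same size but wider errors. Ebf1 had 558, 361 and 823 CPM in Mettl3KO and 140.1, 72.5 and 24.8 CPM in WT, without overlap (2.87 ± 0.82, adjusted p = 0.0602; 0.0261 when only the 6 MPP4 libraries were fitted, 0.0261 to 0.264 over all alternatives). Pax5 had 4.03, 4 and 9.19 CPM in Mettl3KO and 1.17, 0.791 and 0.862 CPM in WT, without overlap (edgeR adjusted p = 0.366). When only the 6 MPP4 libraries were fitted, Pax5 was called (edgeR adjusted p = 0.0286). Mzb1 stood apart from the rest: 242, 178 and 321 CPM in Mettl3KO overlapped 181, 241 and 227 CPM in WT, a difference of 0.19 ± 0.38 with a 95% interval of -0.60 to 0.98 (adjusted p = 0.884).

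Libraries decided some of these MPP4 calls. Igll1 and Vpreb3 were not called without WT replicate 2, WT replicate 3 or Mettl3KO replicate 3 (adjusted p 0.0656 to 0.0880 for Igll1 and 0.0641 to 0.0752 for Vpreb3), and Cd79b was not called without WT replicate 3 (0.0575), each still higher in Mettl3KO. The members moved together between libraries: all 9 ranked the Mettl3KO libraries 3, 1, 2 from high to low, and 7 of 9 ranked the WT libraries 1, 2, 3. Per kilobase of exon, so that genes can be compared, the Mettl3KO MPP4 level ran from 449 CPM for Cd79a, 391 for Igll1, 389 for Vpreb1 and 379 for Vpreb3 down to 59.5 for Ebf1, 46.9 for Blnk and 0.649 for Pax5. In WT MPP4 the order began instead with Mzb1 (178 CPM per kilobase) and Cd79a (142), followed by Cd79b (84.4), with Vpreb3, Vpreb1 and Igll1 between 54.6 and 61.5.

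Relative to Cd79a in the same library, the surrogate light chain genes took a larger part in Mettl3KO MPP4. The ratio of Igll1 to Cd79a (in CPM) averaged 1.31 (1.25 to 1.34) in Mettl3KO and 0.538 (0.379 to 0.784) in WT, and that of Vpreb1 to Cd79a 0.719 (0.687 to 0.736) in Mettl3KO and 0.307 (0.235 to 0.409) in WT (lowest to highest library in parentheses). The ratio of Ebf1 to Cd79a averaged 0.904 (0.861 to 0.982) in Mettl3KO and 0.354 (0.149 to 0.537) in WT. Mzb1 went the other way, at 0.399 (0.339 to 0.484) in Mettl3KO and 1.1 (0.695 to 1.36) in WT. None of these ranges overlapped between genotypes. Those of Vpreb3 and Pax5 (higher in Mettl3KO) and of Cd79b (lower in Mettl3KO) did not either. The ratio of Blnk to Cd79a did overlap, at 0.448 (0.362 to 0.557) in Mettl3KO and 0.329 (0.297 to 0.385) in WT. The ratios were not tested, and how many other genes separate in this way was not counted.

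MPP1 held little of this RNA in either genotype. In Mettl3KO MPP1 7 of 9 members were higher and none was lower (4.74% of all genes were higher and 8.64% differed either way), with a median log2 fold change of 3.44 over the members and 0.01 over all genes. Cd79a had 27.2, 22.3 and 29.8 CPM in Mettl3KO and 1.77, 2.71 and 1.21 CPM in WT (3.80 ± 0.33, 13.9-fold, edgeR adjusted p = 9.66e-07). Igll1 had 31.5, 26.1 and 17.4 CPM in Mettl3KO and 2.1, 2.46 and 0.903 CPM in WT (3.78 ± 0.65, adjusted p = 0.00151). Each Mettl3KO library exceeded each WT library for both genes. Vpreb1 had 18.2, 21.1 and 16.2 CPM in Mettl3KO and 2.79, 1.32 and 1.05 CPM in WT (3.44 ± 0.48, adjusted p = 0.000276). Vpreb3 had 10.8, 12.2 and 10.2 CPM in Mettl3KO and 0.0657, 2.05 and 0.974 CPM in WT (3.38 ± 0.59, adjusted p = 0.00159). Mzb1, which did not differ detectably in MPP4, rose here to 5.37, 8.35 and 7.39 CPM in Mettl3KO, against 0.789, 0.463 and 0.499 CPM in WT (3.599 ± 0.46, adjusted p = 0.000107).

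Ebf1 had 21.5, 18.3 and 26.6 CPM in Mettl3KO MPP1 and 1.18, 5.46 and 0 CPM in WT MPP1 (3.31 ± 0.86, edgeR adjusted p = 0.0214; 0.0902 without MPP1 WT replicate 1, and 0.00494 to 0.333 over all alternatives). Blnk had 8.55, 11.7 and 6.94 CPM in Mettl3KO and 5, 3.63 and 3.26 CPM in WT (1.19 ± 0.36, adjusted p = 0.0427), a call lost when WT replicate 1, 2 or 3 or Mettl3KO replicate 1 or 2 was left out (adjusted p 0.0567 to 0.137). Pax5 was detected in Mettl3KO replicate 1 and 2 (54, 9 and 0 counts in the 3 Mettl3KO libraries, 1, 0 and 0 counts in WT; adjusted p = 0.0559). Cd79b, with 48, 45.2 and 38.8 CPM in Mettl3KO and 35.6, 37.1 and 39.3 CPM in WT, gave a difference of 0.24 ± 0.22 with a 95% interval of -0.22 to 0.69 (adjusted p = 0.525). Without Mettl3KO replicate 2, the granulocyte-rich library, 7 members were again called, Pax5 in place of Blnk. When only the 6 MPP1 libraries were fitted, 33 genes and 2 members (Cd79a and Igll1) were called.

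In MPP2 only Vpreb1 passed the test, at 45.9, 55.9 and 37.3 CPM in Mettl3KO and 14.2, 13.2 and 11.4 CPM in WT (1.84 ± 0.44, edgeR adjusted p = 0.0278; 1.51% of all genes were higher and 2.47% differed either way). This call was lost in 5 of the 6 fits that left out 1 library, all but that without Mettl3KO replicate 3 (adjusted p 0.0841 to 0.116). Vpreb3 had 35.7, 38.4 and 24.5 CPM in Mettl3KO and 9.45, 7 and 9.07 CPM in WT (adjusted p = 0.0539), and Igll1 had 78, 79.1 and 59 CPM in Mettl3KO and 26.9, 17.4 and 18.8 CPM in WT (adjusted p = 0.117). Neither gene overlapped between genotypes, and both were called when only the 6 MPP2 libraries were fitted (adjusted p = 0.0167 each). Ebf1, at 46.3, 47.1 and 45.1 CPM in Mettl3KO and 29.1, 11.2 and 14.4 CPM in WT, gave 1.34 ± 0.78 (adjusted p = 0.424). The signalling chains gave small estimates: Cd79a gave 0.47 ± 0.29, Cd79b -0.13 ± 0.22 and Blnk -0.01 ± 0.34 (95% interval -0.73 to 0.71), with adjusted p of 0.455, 0.842 and 1. Mzb1 had 22.4, 30.8 and 16.2 CPM in Mettl3KO and 30.5, 53 and 71.7 CPM in WT (-1.16 ± 0.38, adjusted p = 0.122; DESeq2 called it lower, 0.0404, and the range over alternatives was 0.0404 to 0.411).

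In HSC a single member changed, and it was lower. Blnk had 0.321, 0.06 and 0.361 CPM in Mettl3KO and 2.89, 1.99 and 1.54 CPM in WT, from 19, 2 and 13 counts in Mettl3KO and 149, 94 and 65 counts in WT (-3.04 ± 0.44, edgeR adjusted p = 0.000263), with 2.49% of all genes lower and 6.15% different either way. The call held in 10 of 11 alternatives and was lost when only the 6 HSC libraries were fitted (adjusted p = 0.115, the highest of the range, whose lowest value was 2.06e-10). The other members were at trace levels except Cd79b, which had 29.7, 30.3 and 35.4 CPM in Mettl3KO and 43.4, 26.7 and 31.6 CPM in WT (-0.09 ± 0.22, 95% interval -0.55 to 0.36). Cd79a had 55, 49 and 46 counts in Mettl3KO and 35, 26 and 18 counts in WT (1.12 ± 0.35, adjusted p = 0.0615), without overlap. Vpreb1 had 32, 17 and 3 counts in Mettl3KO and 78, 26 and 49 counts in WT (-1.46 ± 0.54, adjusted p = 0.118), in the opposite direction; in CPM the Mettl3KO libraries reached 0.54 and the lowest WT library stood at 0.55, so they were barely apart. DESeq2 called 5 members in HSC, 3 higher (Cd79a, Igll1 and Mzb1) and 2 lower (Vpreb1 and Blnk).

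**Figure D2:**
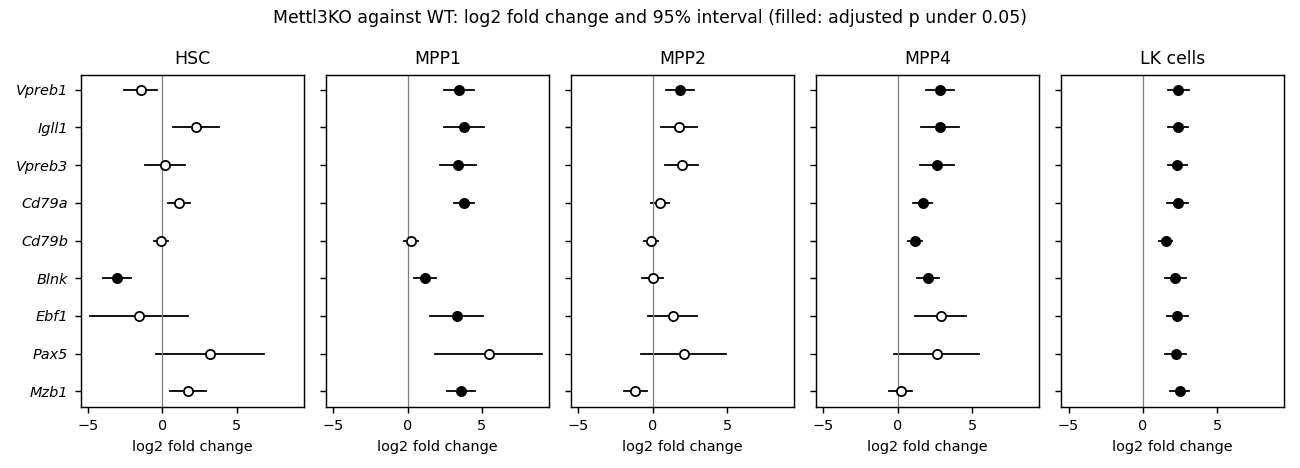
Log2 fold change (Mettl3KO over WT) with its 95% interval for each of the 9 genes in the 4 sorted populations and in LK cells, with filled points for calls at adjusted p under 0.05. Igll1, Vpreb1 and Vpreb3 lie between 2.62 and 2.84 in MPP4 and between 3.38 and 3.78 in MPP1, and Blnk runs from -3.04 in HSC to 2.01 in MPP4.

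Whether the difference between genotypes itself differed among populations was tested with interaction terms. Blnk separated MPP4 and MPP1 from HSC: its Mettl3KO effect was 5.06 ± 0.57 higher on the log2 scale in MPP4 than in HSC (edgeR adjusted p = 0.000289) and 4.24 ± 0.57 higher in MPP1 than in HSC (adjusted p = 0.00515). Vpreb1 did likewise, by 4.90 ± 0.71 in MPP1 (adjusted p = 0.0063) and 4.27 ± 0.69 in MPP4 (adjusted p = 0.00444). Cd79a differed between MPP1 and HSC by 2.67 ± 0.47 (adjusted p = 0.0344) and Cd79b between MPP4 and HSC by 1.23 ± 0.31 (adjusted p = 0.0466). The Cd79a call was lost in 8 of the fits that left out 1 library (0.0573 to 0.153), and the Cd79b call without a filter on low counts (0.0545) and in 8 such fits (0.0639 to 0.145), with the direction kept. The share of all genes called was 0.0386% for MPP1 against HSC and 1.55% for MPP4 against HSC, with 3 members called in each. No member was called for MPP2 against HSC (0.00643% of genes; 4 members at unadjusted p under 0.05, and DESeq2 called 3).

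Cd79a and Mzb1 also set MPP1 apart from the other progenitors, in contrasts added after the data were seen. The Mettl3KO effect on Cd79a was 3.33 ± 0.43 higher in MPP1 than in MPP2 (edgeR adjusted p = 0.000835) and that on Mzb1 4.76 ± 0.60 higher (adjusted p = 0.000835), where 0.0708% of genes differed. Between MPP4 and MPP1 the Cd79a effect differed by -2.14 ± 0.42 (adjusted p = 0.0231) and the Mzb1 effect by -3.41 ± 0.59 (adjusted p = 0.0134), where 1.17% of genes differed; this Cd79a call was lost without MPP1 WT replicate 1 or replicate 3 (0.0560 and 0.0558). No member was called between MPP4 and MPP2 (0.412% of genes; 4 members at unadjusted p under 0.05, and DESeq2 called 2). Seen as shares of the Mettl3KO MPP4 mean, the Mettl3KO MPP1 level was 2.85% to 4.04% for the 7 members other than Cd79b (16.5%) and Pax5 (9.56%). The Mettl3KO MPP2 level was 7.95% to 10.1% for the same 7, with 23.3% for Cd79b and 16.1% for Pax5.

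Genes around the members were read from 4 lists of related functions. Some calls of list genes were lost when 1 library was left out or in other alternatives. Those losses are not given gene by gene. In MPP1 the Mettl3KO means include replicate 2, the granulocyte-rich library. Of 18 tested partners and signalling molecules of the pre-B receptor, 4 were higher and none lower in Mettl3KO MPP1, among them Vpreb2, the near-copy of Vpreb1 (1.81 ± 1.17 CPM in Mettl3KO and 0.141 ± 0.0914 CPM in WT), Prkcb (36.5 ± 34.5 CPM in Mettl3KO and 8.81 ± 4.72 CPM in WT) and Pik3cd, a lymphocyte phosphoinositide kinase (989 ± 454 CPM in Mettl3KO and 470.1 ± 55.2 CPM in WT). In MPP4, 3 were higher, namely Vpreb2 (59.2 ± 29.7 CPM in Mettl3KO and 8.76 ± 4.92 CPM in WT), Pik3ap1, an adaptor of that kinase (69.8 ± 22.7 CPM in Mettl3KO and 21.6 ± 2.23 CPM in WT), and Pik3cd (1.18 ± 0.30 on the log2 scale), and Ptpn6, a phosphatase that restrains the receptor, was lower (-0.52 ± 0.14). The MPP1 median of this list was 0.15 and the MPP4 median 0.28. In HSC Ptpn6 alone was called (-0.46 ± 0.14) and in MPP2 none of the 18 was. Of all genes tested, 8.64% were called in MPP1, 3.13% in MPP4, 6.15% in HSC and 2.47% in MPP2. The HSC and MPP2 counts of this list are thus near the shares over all genes. The same shares apply to the lists and cell markers that follow. Top3b, whose exons overlap Vpreb1, gave adjusted p of 0.309 in MPP4 and 0.592 in MPP1.

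Of 19 B lineage transcription regulators besides Ebf1 and Pax5, 8 were higher and none lower in Mettl3KO MPP1, and 5 higher and none lower in Mettl3KO MPP4. Lef1 averaged 46 ± 14.7 CPM in Mettl3KO and 0.578 ± 0.189 CPM in WT in MPP1, Spib 5.62 ± 3.85 CPM in Mettl3KO and 0.17 ± 0.0447 CPM in WT, Pou2f2 346 ± 40.3 CPM in Mettl3KO and 78.7 ± 20.1 CPM in WT, and Pou2af1, the coactivator of POU factors at the octamer, 2.05 ± 1.52 CPM in Mettl3KO and 0.0272 ± 0.0249 CPM in WT (SD, n = 3). In MPP4 the list was led by Foxo1 (139 ± 43.6 CPM in Mettl3KO and 43.2 ± 7.85 CPM in WT), Ets1 (219 ± 79.9 CPM in Mettl3KO and 58.9 ± 22.1 CPM in WT), Tcf3, which encodes the E proteins that act with EBF1 (2878 ± 433 CPM in Mettl3KO and 1391 ± 171 CPM in WT), and Bach2 (39.3 ± 8.98 CPM in Mettl3KO and 10.9 ± 3.5 CPM in WT). In HSC 2 were higher, Pou2af1 and Pou2f2, and in MPP2 none was called, where 6.15% and 2.47% of all genes differed. The list medians were 1.11 in MPP1, 0.38 in MPP4, 0.08 in HSC and -0.16 in MPP2.

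Genes of recombination and of the interleukin-7 receptor divided. Rag1, the recombinase that joins receptor gene segments, averaged 33.8 ± 3.8 CPM in Mettl3KO and 4.66 ± 1.97 CPM in WT in MPP4 (2.86 ± 0.60), the only one of 10 called there, and 2.16 ± 0.953 CPM in Mettl3KO and 0.0841 ± 0.043 CPM in WT in MPP1 (4.68 ± 0.70). Rag2 (3.64 ± 0.69) and Il7r (2.45 ± 0.59) were also higher in Mettl3KO MPP1. Flt3, the cytokine receptor of lymphoid-primed progenitors, was lower in Mettl3KO HSC (11 ± 4.1 CPM in Mettl3KO and 150.2 ± 88 CPM in WT), MPP1 (70.1 ± 38.7 CPM in Mettl3KO and 345 ± 23.5 CPM in WT) and MPP2 (56.8 ± 19.4 CPM in Mettl3KO and 295 ± 107 CPM in WT). Dntt, the polymerase that adds bases where receptor gene segments join, was lower in Mettl3KO HSC (3.03 ± 0.212 CPM in Mettl3KO and 29.1 ± 22.5 CPM in WT), as was Rag2. Of 12 other B cell surface and plasma cell genes, 1 was lower in MPP4 (Sdc1, -1.38 ± 0.35) and 3 were lower in MPP2 (Sdc1, Xbp1 and Prdm1), and none was higher in either; in MPP1 Fcrla was higher and Prdm1 lower, and in HSC Cd37 and Prdm1 were lower. Markers of other cells moved too, where 3.13% of all genes differed in MPP4 and 8.64% in MPP1. In MPP4, none of 7 tested plasmacytoid dendritic, 10 T and NK, 8 monocyte, 7 dendritic, 11 granulocyte, 7 macrophage or 8 lymphoid-primed markers was called, while 5 of 10 HSC/MPP, 2 of 7 megakaryocyte and 1 of 7 endothelial markers were lower, and of 10 erythroid markers 1 was higher and 2 were lower. The summed plasmacytoid dendritic level was 867 to 893 CPM in Mettl3KO MPP4 and 883 to 898 CPM in WT MPP4, and the summed HSC/MPP marker level 2284 to 2349 CPM in Mettl3KO MPP4 and 3097 to 4201 CPM in WT MPP4. The summed megakaryocyte level was 35.7 to 73.4 CPM in Mettl3KO MPP4 and 215 to 328 CPM in WT MPP4, and the summed lymphoid-primed level 2738 to 3511 CPM in Mettl3KO MPP4 and 2056 to 2736 CPM in WT MPP4. In MPP1, 3 of 10 HSC/MPP markers were lower and 1 higher (2716 to 4287 CPM in Mettl3KO and 4619 to 4756 CPM in WT), 3 of 10 erythroid markers were lower and 1 higher (676 to 1019.9 CPM in Mettl3KO and 1407 to 2155 CPM in WT), and 1 of 7 megakaryocyte markers was lower (210.1 to 449 CPM in Mettl3KO and 836 to 1131 CPM in WT). Of T and NK markers 3 of 10 were higher and 1 lower in MPP1. The summed T and NK level was 102, 293 and 42.3 CPM in Mettl3KO and 175, 196 and 169 CPM in WT, above WT only in Mettl3KO replicate 2, the granulocyte-rich library. Of plasmacytoid dendritic markers 2 of 7 were higher and 1 lower in MPP1, and of monocyte markers 2 of 8 were higher. The part of these markers in the members' difference was not tested.

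Across the 24 bulk libraries, the 10 genes whose log2 level followed the mean of the members most closely, of 12756 with a mean over 1 CPM, included Rag1 (Pearson r = 0.98), Vpreb2 (0.97), Bst1 (0.95), Lef1 (0.95), Ccdc135 (0.94), Spib (0.94), Cecr2 (0.94), Irf8 (0.94) and Rag2 (0.94). Bst1 averaged 23.0 CPM in Mettl3KO MPP4 and 2.67 CPM in WT MPP4, and Cecr2 49.5 CPM in Mettl3KO MPP4 and 5.90 CPM in WT MPP4. Each member correlated with the mean of the other 8 at 0.90 (Cd79b and Pax5) to 0.98 (Cd79a). The libraries share the 4 sorting gates, so these values describe how levels vary over gates and genotypes together.

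The LK libraries, which hold the committed progenitors, showed the whole set at higher levels. All 9 members were higher in Mettl3KO LK cells when UMIs were summed per library, in a comparison in which 13.7% of 13071 genes were higher and 22.4% differed either way. Igll1 had 255, 467 and 393 CPM in Mettl3KO and 97.3, 46.8 and 75.8 CPM in WT (2.34 ± 0.30, edgeR adjusted p = 0.00178), and Vpreb1 had 253, 459 and 424 CPM in Mettl3KO and 99.1, 46.5 and 72.1 CPM in WT (2.38 ± 0.30). Ebf1, the specification factor, had 281, 546 and 452 CPM in Mettl3KO and 116, 56.4 and 86.4 CPM in WT (2.31 ± 0.30, adjusted p = 0.00204). Mzb1, not called in MPP4, had 118, 215 and 186 CPM in Mettl3KO and 43.3, 26 and 23.7 CPM in WT (2.47 ± 0.28, adjusted p = 0.00131). In each of these genes the 3 Mettl3KO libraries lay above the 3 WT libraries. Cd79a, Vpreb3, Pax5 and Blnk gave 2.33, 2.31, 2.19 and 2.16, and Cd79b the smallest estimate, 1.53 ± 0.18, from 98.8, 159.7 and 134 CPM in Mettl3KO and 53.6, 37.8 and 44.5 CPM in WT. Of the ratios to Cd79a, only that of Cd79b was apart between genotypes, at 0.584 (0.546 to 0.615) in Mettl3KO and 1.08 (0.822 to 1.32) in WT. Those of the other members overlapped: Igll1 stood at 1.64 (1.59 to 1.73) in Mettl3KO and 1.66 (1.49 to 1.86) in WT, and Ebf1 at 1.87 (1.75 to 2.02) in Mettl3KO and 1.95 (1.78 to 2.12) in WT. Around them, 7 of 18 pre-B receptor partners were higher and none lower (Blk, a kinase that phosphorylates the receptor chains, had 4.27 ± 0.733 CPM in Mettl3KO and 0.927 ± 0.379 CPM in WT), as were 6 of 10 recombination and IL-7 receptor genes (Rag2 16.5 ± 5.6 CPM in Mettl3KO and 3.29 ± 0.923 CPM in WT) and 5 of 12 other B cell genes, while 8 of 19 transcription regulators were higher and 2 lower. Markers of other cells moved with genotype too: 8 of 10 erythroid markers were lower, with a summed level of 1513 to 2149 CPM in Mettl3KO and 3349 to 4483 CPM in WT, and 5 of 11 granulocyte markers, at 12403 to 16861 CPM in Mettl3KO and 20731 to 105010 CPM in WT. Also lower were 6 of 7 basophil and mast cell markers (125 to 218 CPM in Mettl3KO and 356 to 408 CPM in WT). Higher were 5 of 10 HSC/MPP markers, with 1 lower (329.5 to 424 CPM in Mettl3KO and 267 to 293 CPM in WT), 5 of 7 dendritic markers (1424 to 1957 CPM in Mettl3KO and 1051 to 1348 CPM in WT), 4 of 8 lymphoid-primed markers and, with 1 lower, 3 of 7 macrophage markers. Their part in the members' difference was not tested.

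Single cells showed how this RNA was distributed. The share of cells with UMIs of at least 3 members was 22.5%, 44.4% and 31.5% in Mettl3KO libraries and 9.10%, 6.12% and 5.77% in WT libraries (32.8 ± 11.0% and 6.997 ± 1.83%, SD, n = 3 each; exact two-sided permutation p = 0.1, the smallest that 3 against 3 allows). After thinning each cell to 3000 UMIs the shares were 25.7 ± 7.47% in Mettl3KO and 5.53 ± 2.02% in WT, with 18, 10 and 79 shallower cells left out in Mettl3KO and 59, 0 and 419 in WT. Most cells held either few or most of the members, with 3627 cells holding at least 6 and only 97 holding 5. A cutoff of 6, chosen after seeing this, gave 17.5%, 31.9% and 25.9% in Mettl3KO and 7.49%, 4.24% and 4.69% in WT. All 9 members were detected in 238, 356 and 412 cells of the Mettl3KO libraries and in 118, 44 and 36 cells of the WT libraries.

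**Figure D3:**
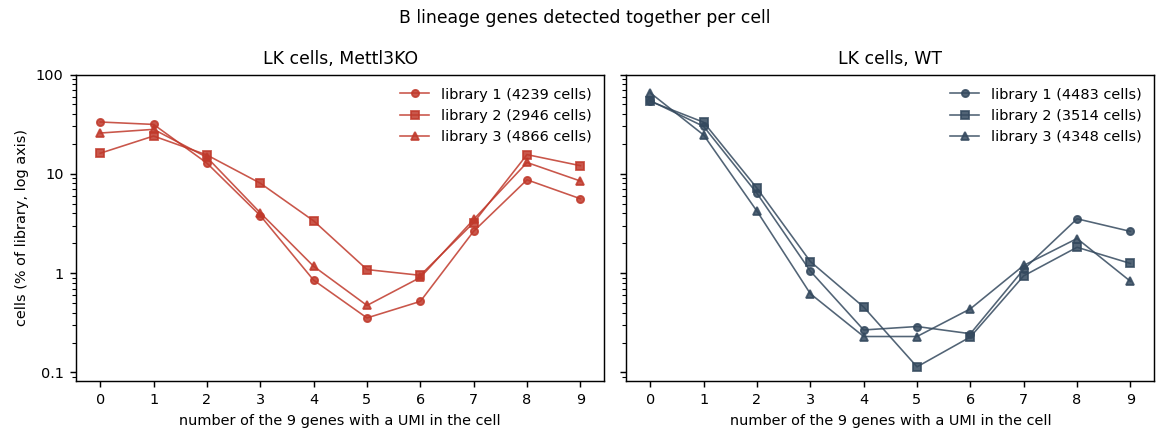
Percent of the cells of each LK library by the number of members with at least 1 UMI (0 to 9), Mettl3KO libraries and WT libraries. Few cells hold 5 or 6 members in any of the 6 libraries, and more hold 8, where Mettl3KO libraries hold 369, 460 and 633 cells and WT libraries 158, 64 and 97.

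Cells with most of the members also grouped together by other genes. Clustering on variable genes that left out all 9 gave 23 clusters, of which clusters 3 and 9, with 3160 cells, were B lineage-like by their markers. With the members set aside, Bfsp2, Dntt, Id3 and Lef1 were among the leading genes of both clusters. The markers that named them include the members, and clusters entered this class only if enough of their cells held at least 6 members. The shares that follow therefore describe the clusters and test nothing. At least 6 members were seen in 99.7% of their cells, and they held 86.8% of all cells with at least 6. They made up 15.3%, 28.7% and 22.8% of Mettl3KO libraries and 6.38%, 3.10% and 3.75% of WT libraries. Cluster 3 was the more proliferative by Top2a (9.87 UMIs per 10000 in cluster 3 and 3.27 in cluster 9), and it held 60.1% to 64.5% of these cells in Mettl3KO and 62.4% to 69.3% in WT. Ebf1 was the most abundant member in cluster 3 (29.5 UMIs per 10000), followed by Vpreb3 (25.1), Vpreb1 (23.4), Igll1 (23.1) and Cd79a (15.2); Pax5 was seen in 45.1% of its cells. Kit, which encodes the c-Kit used in the sort, was seen in 7.51% of cluster 3 cells and in 30.8% of cells outside both clusters. Another B lineage-like cluster, 19, was left out because 41.7% of its cells were called doublets; it held 38, 14 and 43 cells in Mettl3KO and 2, 3 and 3 in WT.

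Within clusters 3 and 9 the members were close in level between genotypes, Mzb1 apart. The clusters were picked partly by the members, so this closeness is not independent of that choice. Of the 9, 1 was called, in a comparison in which 0.189% of 8987 genes were higher and 0.256% differed. Igll1 had 22.3, 24.7 and 22.8 UMIs per 10000 in Mettl3KO and 21.8, 22 and 26.6 in WT (0.02 ± 0.09, 95% interval -0.16 to 0.20, edgeR adjusted p = 0.978). Cd79a had 14.3, 14.4 and 14.3 UMIs per 10000 in Mettl3KO and 14.5, 13.2 and 15 in WT (0.04 ± 0.08, 95% interval -0.12 to 0.21). The libraries of both genotypes overlapped for these genes. The other members besides Mzb1 gave estimates from -0.15 (Pax5) to 0.14 (Cd79b), neither of them called. Pax5 had 1.11, 1.13 and 1.07 UMIs per 10000 in Mettl3KO and 1.199, 1.19 and 1.36 in WT, without overlap, Cd79b had 6.14, 7.23 and 6.14 in Mettl3KO and 5.95, 5.97 and 6.15 in WT, with overlap, and the widest 95% interval among them, that of Pax5, ran from -0.35 to 0.06. Mzb1 was the exception, at 9.86, 10.9 and 10.6 UMIs per 10000 in Mettl3KO and 8.44, 7.42 and 7.04 in WT (0.47 ± 0.09, adjusted p = 0.0138). Its call was lost without Mettl3KO replicate 2 or 3 or WT replicate 2 or 3 (0.0520 to 0.163) and within cluster 3 alone (0.102, with 0.123% of genes called) or cluster 9 alone (0.0655, with 0.0294%), each time with a higher Mettl3KO value. Mettl3 itself gave -0.27 ± 0.24 in these clusters (adjusted p = 0.83, 95% interval -0.76 to 0.22). None of 17 pre-B receptor partners, 18 transcription regulators or 10 recombination and IL-7 receptor genes was called there.

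**Figure D4:**
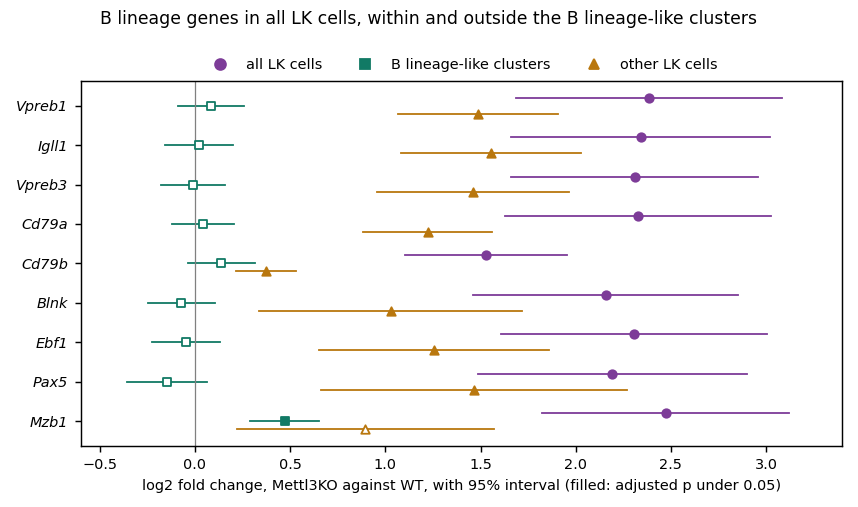
Log2 fold change (Mettl3KO over WT) with its 95% interval for each of the 9 genes in all LK cells, within the B lineage-like clusters 3 and 9, and in the other LK cells. In all LK cells the estimates lie between 1.53 and 2.47, within the clusters between -0.15 and 0.47, and in the other cells between 0.37 and 1.56.

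Outside those clusters, in cells with fewer than 6 members, the members were also higher in Mettl3KO: 8 of 9 were called, where 12.5% of 12794 genes were higher and 19.4% differed either way. These cells were picked by the members themselves, so the calls describe the cells left and are not independent of that choice. The 2 genotypes filled different clusters there: 3 clusters (4, HSC/MPP-like; 10, megakaryocyte-like; and 14, without a name) held 1865, 1112 and 606 Mettl3KO cells and 12, 2 and 7 WT cells, or 31.0% to 47.0% of these cells in Mettl3KO libraries and 0.169% to 0.208% in WT libraries. Without these 3 clusters, 502 genes and 6 of 9 members were called, with Blnk (edgeR adjusted p = 0.0506) and Pax5 (0.0698) lost and each of the 9 still higher in Mettl3KO. The fold changes were 1.56 ± 0.21 for Igll1, 1.49 ± 0.18 for Vpreb1, 1.26 ± 0.26 for Ebf1 and 0.37 ± 0.07 for Cd79b, and Mzb1 gave 0.90 ± 0.29 (edgeR adjusted p = 0.0675). The Blnk call (0.0468) was lost without LK Mettl3KO replicate 2 or 3 or any 1 WT library (0.0719 to 0.122), and the Pax5 call (0.0229) in DESeq2 (0.0601) and without Mettl3KO replicate 1 or 3 or WT replicate 1 or 2 (0.0781 to 0.0875). Igll1 was seen in 13.4% to 23.6% of such cells in Mettl3KO libraries and in 4.97% to 6.33% in WT libraries. Cd79b differed from the rest in being widespread: it was seen in 27.1% to 31.9% of these cells in Mettl3KO and in 16.4% to 24.7% in WT, and the cells with at least 6 members held 67.1% to 82.0% of its UMIs in Mettl3KO and 29.9% to 46.6% in WT. For Ebf1 that share was 96.8% to 97.9% in Mettl3KO and 91.5% to 95.3% in WT.

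Free RNA in droplets can place UMIs in cells that do not make a gene, so the members were read in erythroid-like cells, which should lack them. Igll1 was seen in 30.9 ± 6.53% of Mettl3KO and 8.53 ± 0.678% of WT erythroid-like cells (SD, n = 3 libraries each), with median depths of 19214 to 21721 UMIs in Mettl3KO and 13167 to 20224 in WT. These cells include 31 Mettl3KO and 22 WT cells with at least 6 members, which held 42.0% to 60.8% of the class's Igll1 UMIs in Mettl3KO libraries and 33.3% to 59.8% in WT libraries. Among cells with fewer than 6, Igll1 was seen in 22.5% to 34.7% of erythroid-like cells in Mettl3KO and 7.12% to 7.66% in WT, a larger share in each library than that of all other LK cells given above, whose median depth was lower (8055 to 9498.5 UMIs in Mettl3KO and 6062 to 10705 in WT). Those shares are therefore not read as expression. The Igll1 level went the other way, at 0.115, 0.257 and 0.165 UMIs per 10000 in Mettl3KO and 0.0493, 0.0385 and 0.0534 in WT erythroid-like cells, against 0.160, 0.268 and 0.196 in Mettl3KO and 0.0625, 0.0582 and 0.0795 in WT over all other LK cells, which include them. Levels in erythroid-like cells thus also differed between genotypes without overlap, and the part of free RNA in the difference outside the B lineage-like clusters was not tested. The shares were not thinned to a common depth. Over all erythroid-like cells, Ebf1 was seen in 19.3 ± 4.92% in Mettl3KO and 6.08 ± 0.494% in WT.

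In the HSC/MPP-like cluster that carries Dntt and Flt3 (313 Mettl3KO and 925 WT cells; chosen after the data were seen), Ebf1 was seen in 24.02 ± 7.79% of Mettl3KO and 5.76 ± 2.21% of WT cells, at median depths of 5099 to 5667 UMIs in Mettl3KO and 3555 to 4852 in WT. Its level was 0.713, 2.47 and 1.63 UMIs per 10000 in Mettl3KO and 0.804, 0.174 and 0.259 in WT, and in erythroid-like cells 0.338 ± 0.0844 in Mettl3KO and 0.106 ± 0.0161 in WT. The genotypes overlapped, since Mettl3KO replicate 1 lay below WT replicate 1. This cluster holds 19 Mettl3KO and 9 WT cells with at least 6 members, which carried 39.1%, 46.1% and 70.1% of its Ebf1 UMIs in Mettl3KO libraries and 61.7%, 0% and 15.2% in WT libraries. Without them, a choice that itself rests on the members, the Ebf1 level was 0.449, 1.42 and 0.535 UMIs per 10000 in Mettl3KO and 0.314, 0.174 and 0.221 in WT, without overlap, from 28, 82 and 29 UMIs in Mettl3KO and 44, 26 and 28 in WT. The share of cells with an Ebf1 UMI was then 19.1 ± 8.94% in Mettl3KO and 4.94 ± 1.03% in WT. The UMI ratio of Ebf1 to Igll1 was 1.14 to 1.19 in Mettl3KO and 1.19 to 1.29 in WT B lineage-like cells and 0.799 to 1.18 in Mettl3KO and 0.976 to 1.27 in WT erythroid-like cells. In the Dntt and Flt3 cluster it was 5.75, 2.203 and 2.205 in Mettl3KO and 2.80, 2.17 and 1.32 in WT. These came from 8, 69 and 44 Igll1 UMIs in Mettl3KO and 41, 12 and 25 in WT. They lay above the ratio of the erythroid-like cells of the same library in all 6, by little in WT replicate 3 (1.32 and 1.27). Several of these ratios rest on few UMIs, and their differences were not tested. Among cells with fewer than 6 members the ratio was 0.475 to 1.09 in Mettl3KO and 0.804 to 1.02 in WT erythroid-like cells. In the Dntt and Flt3 cluster such cells gave 4, 4.56 and 1.81 in Mettl3KO and 4.89, 2.17 and 1.47 in WT, from 7, 18 and 16 Igll1 UMIs in Mettl3KO and 9, 12 and 19 in WT. The part of free RNA in these levels was not tested. The shares that follow again include the cells with at least 6 members. In the Dntt and Flt3 cluster Blnk was seen in 17.2 ± 5.4% of Mettl3KO and 5.25 ± 1.19% of WT cells. In erythroid-like cells it was seen in 8.81 ± 2.75% in Mettl3KO and 3.84 ± 1.62% in WT. Cd79b was seen in 35.5 ± 5.42% of Mettl3KO and 23.2 ± 3.79% of WT cells of the Dntt and Flt3 cluster. Exact tests over 3 libraries a genotype could not go below p = 0.1, and none was run on these shares.

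**Figure D5:**
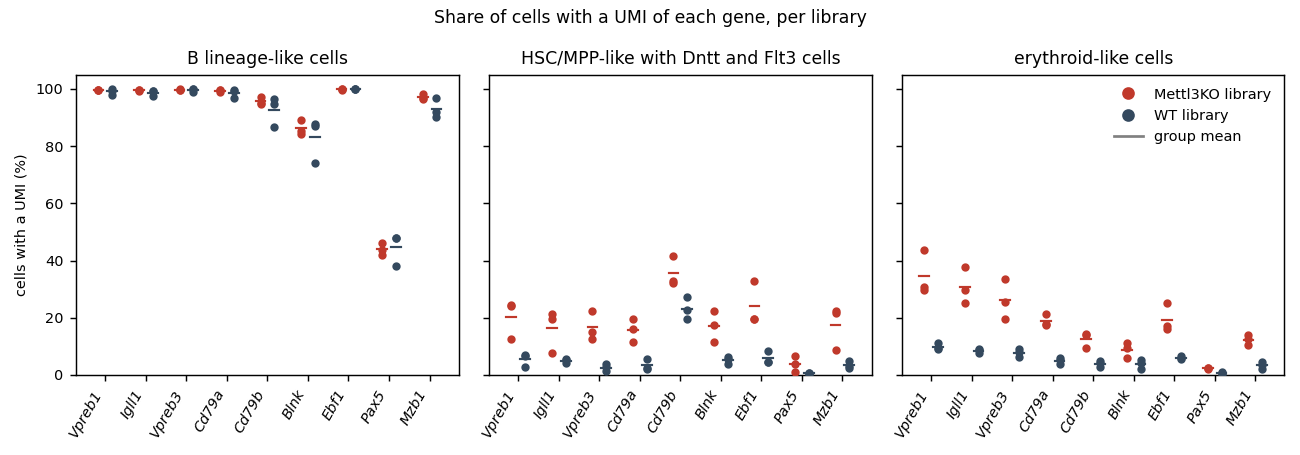
Percent of cells with at least 1 UMI of each of the 9 genes in the HSC/MPP-like cluster with Dntt and Flt3, in erythroid-like cells and in B lineage-like cells, 1 point per library, Mettl3KO left of WT, cells with at least 6 of the genes included. Ebf1 averages 24.02% in Mettl3KO and 5.76% in WT in the HSC/MPP-like cluster, 19.3% and 6.08% in erythroid-like cells and 99.9% and 100% in B lineage-like cells.

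Mzb1 was also high in other LK cells. A small cluster without a name, whose leading genes included Jchain, Ly6d, Txndc5, Xbp1 and Tnfrsf17 (genes of plasma cells and plasmacytoid dendritic cells), held 20, 24 and 19 cells in Mettl3KO libraries and 18, 21 and 9 in WT libraries. Mzb1 was seen in 98.4% of its Mettl3KO and 100% of its WT cells, at 32.7 ± 1.83 UMIs per 10000 in 3 Mettl3KO libraries and 34.5 ± 0.94 in the 2 WT libraries with at least 10 cells. Cd79a was seen in 96.8% of its Mettl3KO and 97.9% of its WT cells, Ebf1 in 12.7% and 8.33% and Vpreb1 in 27.0% and 2.08%. The cells with at least 6 members held 89.4% to 94.0% of all Mzb1 UMIs in Mettl3KO libraries and 52.2% to 80.9% in WT libraries.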

How the data were processed

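Per the labels, sorted cells were amplified with SMARTer and sequenced on a HiSeq2000, and LK cells with the 10x droplet system; Bowtie, TopHat and Cell Ranger 2.2 are named in the submitters' processing notes, with no counting rule. The bulk table that the authors deposited holds whole-number counts per gene although its name says FPKM, so a count test was used; the deposited single-cell table holds UMI counts. From these, edgeR 4.0.16 (R 4.3.3; TMM, filterByExpr, quasi-likelihood, Benjamini-Hochberg over all genes tested) was fitted to all 24 bulk libraries in 8 groups (16 residual degrees of freedom), and to UMIs summed per LK library. DESeq2 1.42.0, DESeq2 size factors, no filter, a replicate block, only the 6 libraries compared and each library left out were alternatives.

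Of 24693 deposited cells, 297 with over 10% mitochondrial UMIs were removed; 24396 were clustered with scanpy 1.11.5 and leidenalg 0.10.2 (1990 variable genes without the members, 30 components, resolution 1), and Scrublet called 248 doublets, 1.02%, which were kept. Clusters were rebuilt and named from marker lists. Clusters with 20% or more doublet calls stayed out of the B lineage-like class, a limit set after seeing the data. The B lineage-like clusters, the other LK cells, the 3 cell classes, the values without cells of at least 6 members or without clusters of nearly 1 genotype (95% or more), and the contrasts among MPP1, MPP2 and MPP4 were added after seeing the data. Simulated data were used to test only the bulk fit for Mettl3KO against WT in MPP4 and the fit over all LK cells. The other contrasts and the alternatives had no such test.

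Named genes were the 9 members, at most the 4 genes with the smallest p of each related list in a comparison, and the 10 genes most like the members' mean; 1 gene is not reported here. The members and lists were chosen with earlier results of these data known. The 95% intervals come from the edgeR fits and include the spread between libraries.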

Additional observations from a re-analysis of the deposited data

Results flagged for a closer look

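The difference between Mettl3KO and WT itself differed between populations for 10 pairs of gene and contrast, by interaction terms (edgeR, adjusted p under 0.05; log2 scale, 3 libraries a group). Between MPP1 and HSC the difference was larger in MPP1 by 2.67 for Cd79a, 4.24 for Blnk and 4.90 for Vpreb1. Between MPP4 and HSC it was larger in MPP4 by 1.23 for Cd79b, 5.06 for Blnk and 4.27 for Vpreb1. Between MPP1 and MPP2 it was larger in MPP1 by 3.33 for Cd79a and 4.76 for Mzb1. The contrast of MPP4 with MPP1 gave -2.14 for Cd79a and -3.41 for Mzb1, so both differed more in MPP1. The contrasts with MPP1 share its libraries, and those with HSC share the HSC libraries, so these values are not independent of each other.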

How the results depend on the processing

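The 9 members were called higher in LK cells in every alternative run. DESeq2 called more genes in most comparisons: 1796 in HSC (edgeR 956), 2418 in MPP1 (edgeR 1343), 1039 in MPP2 (edgeR 384), 1133 in MPP4 (edgeR 486), 131 in WT MPP1 against HSC (edgeR 4), 1498 in WT MPP2 against HSC (edgeR 608), 2994 in WT MPP4 against HSC (edgeR 1871), 160 in the MPP1 minus HSC difference (edgeR 6), 70 in the MPP2 minus HSC difference (edgeR 1), 876 in the MPP4 minus HSC difference (edgeR 241), 183 in the MPP1 minus MPP2 difference (edgeR 11), 821 in the MPP4 minus MPP1 difference (edgeR 182) and 495 in the MPP4 minus MPP2 difference (edgeR 64); within the B lineage-like clusters it called 15 (edgeR 23). Of the members it called 5 in HSC, 3 in MPP2, 3 in WT MPP1 against HSC, 3 for MPP2 minus HSC and 2 for MPP4 minus MPP2. With only the 6 libraries compared, genes called were 522 in HSC, 33 in MPP1, 991 in MPP4, 0 in WT MPP1 against HSC (there fewer libraries estimate the spread) and 1082 in WT MPP2 against HSC, and members called 0 in HSC, 2 in MPP1 and 3 in MPP2. Within the B lineage-like clusters, no filter on low counts gave 104 genes, cluster 3 alone 10 genes and 0 members, and cluster 9 alone 2 genes and 0 members; in the other LK cells, only clusters found in both genotypes gave 502 genes. Estimates near 0 changed sign there: Vpreb3 was 0.000626 in DESeq2, 0.0359 without the filter and 0.00561 in cluster 9, and Igll1 -0.00219 in cluster 3. The cause of these shifts was not tested.

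With the replicate number as a block (replicate block), WT MPP1 against HSC gave 14 genes, the MPP1 minus MPP2 difference 5, the B lineage-like clusters 13 genes and 0 members, Blnk in MPP2 turned to 0.0337, and Cd79a for MPP1 minus HSC (edgeR adjusted p = 0.0837) and Mzb1 in the B lineage-like clusters (0.0977) were not called. The numbers were not taken to pair the samples: between genotypes the deviations of same-numbered libraries correlated at -0.142 to 0.0546 in sorted cells and at -0.0658, -0.182 and -0.298 in LK cells. Between WT HSC and the other WT populations they correlated at 0.0595 to 0.144 for the same number and -0.11 to -0.00716 for different numbers, so each library correlated best with its own number, a hint from the data; the labels do not say whether 1 mouse gave several populations. The block joined the same number of both genotypes, so pairing of populations within a genotype was not tested.

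With 1 library left out at a time, genes called ranged over 454 to 1275 in HSC, 680 to 1774 in MPP1, 109 to 220 in MPP2, 137 to 350 in MPP4, 2 to 8 in WT MPP1 against HSC, 199 to 409 in WT MPP2 against HSC, 680 to 1352 in WT MPP4 against HSC, 4 to 25 in the MPP1 minus HSC difference, 1 to 2 in the MPP2 minus HSC difference, 73 to 771 in the MPP4 minus HSC difference, 3 to 27 in the MPP1 minus MPP2 difference, 20 to 439 in the MPP4 minus MPP1 difference, 13 to 108 in the MPP4 minus MPP2 difference, 1887 to 2614 in LK cells, 8 to 45 in the B lineage-like clusters and 1363 to 2183 in the other LK cells. Members called ranged over 1 to 3 in HSC, 0 to 1 in MPP2, 3 to 6 in MPP4, 0 to 1 in WT MPP1 against HSC, 0 to 1 in the B lineage-like clusters, 1 to 2 in the MPP4 minus MPP1 difference and 0 to 1 in the MPP4 minus MPP2 difference. Members without a call whose sign turned were, in HSC, Cd79b (-0.235 to 0.132) and Vpreb3 (-0.0496 to 0.514); in MPP2, Cd79b (-0.277 to 0.124) and Blnk (-0.157 to 0.203); in MPP4, Mzb1 (-0.0449 to 0.378); in WT MPP1 against HSC, Cd79b (-0.0128 to 0.355). In the B lineage-like clusters these were Cd79a (-0.0037 to 0.0719), Vpreb3 (-0.0512 to 0.0385), Igll1 (-0.0216 to 0.113) and Ebf1 (-0.104 to 0.0186). Among differences between populations they were Cd79b (-0.264 to 0.211), Igll1 (-1.39 to 1.05) and Pax5 (-1.93 to 2.07) for MPP2 minus HSC, Igll1 (-0.311 to 2.13) and Pax5 (-1.1 to 2.61) for MPP4 minus HSC, Ebf1 (-2.44 to 0.269) for MPP4 minus MPP1 and Pax5 (-0.198 to 1.31) for MPP4 minus MPP2. Pax5 had at most 54 counts in any HSC, MPP1 or MPP2 library.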
